A study of Homo sapiens with 4 samples.

Results

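The peaks of chromosome 19 were taken from 4 lists of CUT&RUN peaks, a method in which a nuclease is tethered to an antibody in opened cells and the short pieces of DNA it cuts free near the target are sequenced. Every peak that a list placed on chromosome 19 was included, 540 of the 6948 peaks listed in all. They were 281 of 3092 peaks for ASH1L in vehicle-treated cells, 134 of 1829 for ASH1L with AS-99, 76 of 1375 for H3K36me2 in vehicle-treated cells and 49 of 652 for H3K36me2 with AS-99. The chromosome was chosen for its number of peaks, so that number is a description and carries no test.

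All 4 libraries came from MV4;11, a human leukemia cell line with a rearranged MLL1 gene, and differed in antibody and treatment. Per the labels the cells were treated for 4 days with 5 µM AS-99, a small-molecule inhibitor of ASH1L, or with 0.25% DMSO as the vehicle. Each of the 4 groups held 1 library, and they are named by treatment and antibody, with ASH1L in DMSO and in AS-99 first and H3K36me2 in DMSO and in AS-99 next. After removal of duplicates the libraries held 19635489, 15381860, 15584143 and 13208636 fragments in that order. With 1 library a group no difference has a replicate check and none was tested. Peaks were called without a control library, so signal that does not depend on the antibody was not measured. The 95% intervals given below are for counting error only (for a median, the scatter of its peaks) and leave out variation between cultures.

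ASH1L is a histone methyltransferase that dimethylates lysine 36 of histone H3, and H3K36me2 is a broad mark of active and intergenic chromatin. Chromosome 19 is rich in genes and in G and C bases. It holds the largest clusters of human C2H2 zinc finger genes, most of which carry symbols starting with ZNF, and many of these encode repressors that act through the corepressor TRIM28. The clusters lie in stretches poorer in G and C than the rest of the chromosome, while the starts of the ZNF genes themselves often lie in CpG-rich DNA.

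The sequences below are the hg19 reference, plus strand, over 200 bases around the summit of a peak, and CG dinucleotides are in capitals. The first 5 are from the 6 regions of the chromosome that held a peak in each of the 4 lists, shown because they are the positions on which both antibodies and both treatments met. They lie in an exon of SIGLEC10 (chr19:51920590-51920789), between genes near TNFSF9 (chr19:6522191-6522390), in introns of EPS15L1 (chr19:16477871-16478070) and SHISA7 (chr19:55952548-55952747), and in the coding exon of FPR3 within the span of ZNF577 (chr19:52327836-52328035). The last pair are DMSO ASH1L peaks in CpG-richer DNA, at the start of CIC (chr19:42772899-42773098) and in an intron of ZNF790 (chr19:37329698-37329897).
SIGLEC10: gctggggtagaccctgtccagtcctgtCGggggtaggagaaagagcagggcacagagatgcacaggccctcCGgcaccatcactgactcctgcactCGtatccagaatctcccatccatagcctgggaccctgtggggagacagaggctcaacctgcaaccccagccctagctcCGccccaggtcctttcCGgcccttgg
TNFSF9, upstream: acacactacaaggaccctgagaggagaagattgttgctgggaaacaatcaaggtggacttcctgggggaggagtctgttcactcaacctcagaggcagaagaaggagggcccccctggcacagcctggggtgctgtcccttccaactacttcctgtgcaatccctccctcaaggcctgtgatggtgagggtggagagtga
EPS15L1: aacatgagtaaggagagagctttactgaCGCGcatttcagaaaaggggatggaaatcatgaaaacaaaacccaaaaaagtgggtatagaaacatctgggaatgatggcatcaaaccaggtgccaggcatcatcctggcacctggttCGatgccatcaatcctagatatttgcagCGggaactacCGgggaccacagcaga
SHISA7: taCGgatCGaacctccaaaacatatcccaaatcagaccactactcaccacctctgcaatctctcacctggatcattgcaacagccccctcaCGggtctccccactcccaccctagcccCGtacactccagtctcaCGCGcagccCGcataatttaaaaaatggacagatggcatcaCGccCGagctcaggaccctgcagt
FPR3 and ZNF577: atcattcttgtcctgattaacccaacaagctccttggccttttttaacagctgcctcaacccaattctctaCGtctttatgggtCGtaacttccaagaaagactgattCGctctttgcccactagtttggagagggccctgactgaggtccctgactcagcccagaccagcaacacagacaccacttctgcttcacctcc
CIC: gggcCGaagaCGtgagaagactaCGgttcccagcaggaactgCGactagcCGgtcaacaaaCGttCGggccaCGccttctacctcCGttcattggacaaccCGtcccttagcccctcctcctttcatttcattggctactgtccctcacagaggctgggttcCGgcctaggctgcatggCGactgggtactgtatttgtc
ZNF790: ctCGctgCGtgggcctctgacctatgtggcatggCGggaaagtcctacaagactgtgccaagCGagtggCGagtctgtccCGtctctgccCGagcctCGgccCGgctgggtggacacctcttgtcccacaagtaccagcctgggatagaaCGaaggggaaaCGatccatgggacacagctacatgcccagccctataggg
The window near TNFSF9 held 0 CG dinucleotides and 56.5% G and C, whereas the window at CIC held 12 CG dinucleotides at 57.5%. The window of ZNF790 held 11, that of SHISA7 held 9, those of SIGLEC10 and EPS15L1 held 5 each and that of FPR3 held 3. The windows near TNFSF9 and at CIC thus had similar G and C content but unequal CG content.

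Chromosome 19 had the highest peak density of the 24 nuclear chromosomes in every list. It made up 1.95% of the determined bases and 9.11% of the nuclear peaks of DMSO ASH1L (95% exact binomial interval 8.11 to 10.2). Its share was 7.34% of the nuclear peaks of AS-99 ASH1L (6.19 to 8.64), 5.55% of DMSO H3K36me2 (4.40 to 6.90) and 7.59% of AS-99 H3K36me2 (5.66 to 9.90). Between antibodies the share differed in the vehicle, by 3.55 percentage points more for ASH1L (1.90 to 5.08). With AS-99 that difference was -0.24 points, with an interval from -2.80 to 1.97.

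Per Mb of determined sequence, DMSO ASH1L had 5.04 peaks on chromosome 19, against 1.92 on chromosome 17, 1.49 on chromosome 22 and 1.05 over all other autosomes. Chromosome 22 is close to chromosome 19 in base composition, with 48.0% G and C against 48.4%, and has fewer genes, 12.9 against 26.5 protein-coding genes per Mb. The density of chromosome 19 was 4.79 times that of the other autosomes for DMSO ASH1L (4.22 to 5.41) and 3.78 times for AS-99 ASH1L (3.15 to 4.51). For H3K36me2 it was 2.82 times in DMSO (2.21 to 3.55) and 4.00 times with AS-99 (2.92 to 5.36). Against chromosome 22 alone the ratios were 3.38, 2.79, 1.70 and 3.40 in the same order. The part of base composition and gene number in these densities was not tested.

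**Figure D1:**
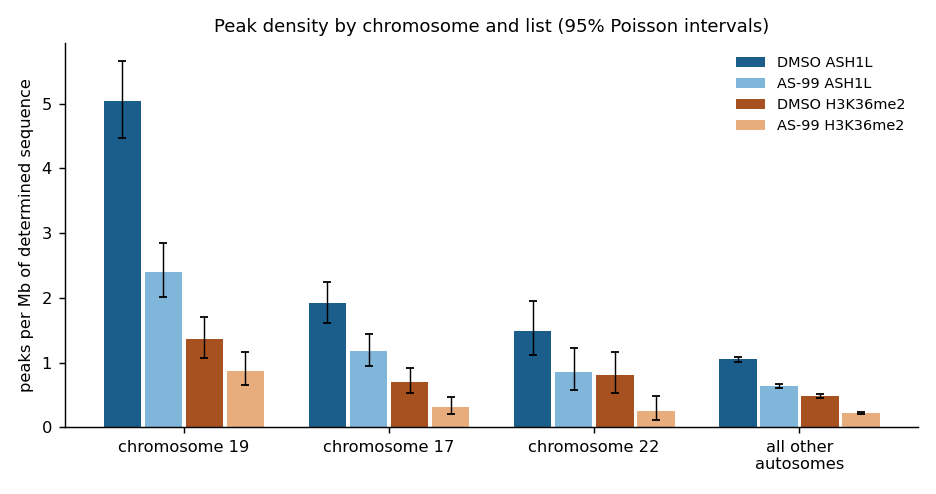
Peaks per Mb of determined sequence (vertical axis) on chromosome 19, chromosome 17, chromosome 22 and all other autosomes pooled, with one bar for each list and 95% Poisson intervals. The 4 bars of chromosome 19 stand at 5.04, 2.40, 1.36 and 0.88 peaks per Mb and are the highest of their list.

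The local background that the peak caller set under each peak was higher on chromosome 19 than on the other chromosomes pooled in 3 of the 4 lists. Its median was 3.73 fragments at the peaks of DMSO ASH1L on chromosome 19 and 2.58 at those on other chromosomes, and 266 of the 281 peaks lay above the latter value. For AS-99 ASH1L it was 2.84 against 2.15, for AS-99 H3K36me2 2.49 against 2.02, and for DMSO H3K36me2 3.39 against 3.36. By chromosome, the median background of chromosome 19 ranked 1, 2, 9 and 2 of 24 in the 4 lists, and that of chromosome 8 was higher in all but DMSO ASH1L. Median pileup, the number of fragments over a summit, was 20 on chromosome 19 and 16 elsewhere for DMSO ASH1L, and the median fold over background was 4.39 against 4.73. The peaks were small throughout, with a highest pileup of 40, 35, 39 and 30 in the 4 lists. They were also short, with median lengths of 331, 345, 351 and 322 bp. The H3K36me2 peaks are thus narrow calls, and their positions do not measure the extent of the broad mark. The part of the local background in the number of peaks was not tested.

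Along the chromosome, peaks were spread over both arms and were fewest beside the centromere. DMSO ASH1L had 4.46 peaks per Mb on the short arm (3.66 to 5.38) and 5.48 on the long arm (4.69 to 6.36), and DMSO H3K36me2 had 1.52 (1.07 to 2.09) and 1.24 (0.88 to 1.70), so the arms did not differ beyond their intervals. In bins of 5 Mb, the one with the lowest density in the ASH1L lists and in DMSO H3K36me2 was chr19:20000001-25000000, the pericentromeric ZNF region in which 33 of the 36 protein-coding genes are ZNF genes. It held 5, 2, 1 and 1 peaks in the 4 lists, and in AS-99 H3K36me2 the bin chr19:30000001-35000000 was lower, with 0. The highest density of DMSO ASH1L was 8.6 peaks per Mb in chr19:50000001-55000000, which holds 43 of its peaks, 167 genes and the immune receptor genes SIGLEC10, LILRA5 and LAIR1. The neighbouring bin chr19:45000001-50000000 held 37 peaks of DMSO ASH1L, 20 of AS-99 ASH1L, 3 of DMSO H3K36me2 and 6 of AS-99 H3K36me2. For H3K36me2 this was 0.6 peaks per Mb in DMSO and 1.2 with AS-99, against 1.36 and 0.88 over the chromosome.

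Over the 57 bins of 1 Mb with determined sequence, the peak density of DMSO ASH1L had a Spearman's rho of 0.62 with the density of genes other than ZNF genes and of 0.49 with G and C content. The 2 properties vary together along the chromosome and the bins share 1 library, so these coefficients describe these bins only. For AS-99 ASH1L the coefficients were 0.47 and 0.45, for DMSO H3K36me2 0.48 and 0.41, and for AS-99 H3K36me2 0.40 and 0.49. Against the density of ZNF genes the coefficients lay between -0.28 and -0.11 in the 4 lists. The ASH1L densities in DMSO and AS-99 had a coefficient of 0.67 with each other, and the H3K36me2 densities 0.35.

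**Figure D2:**
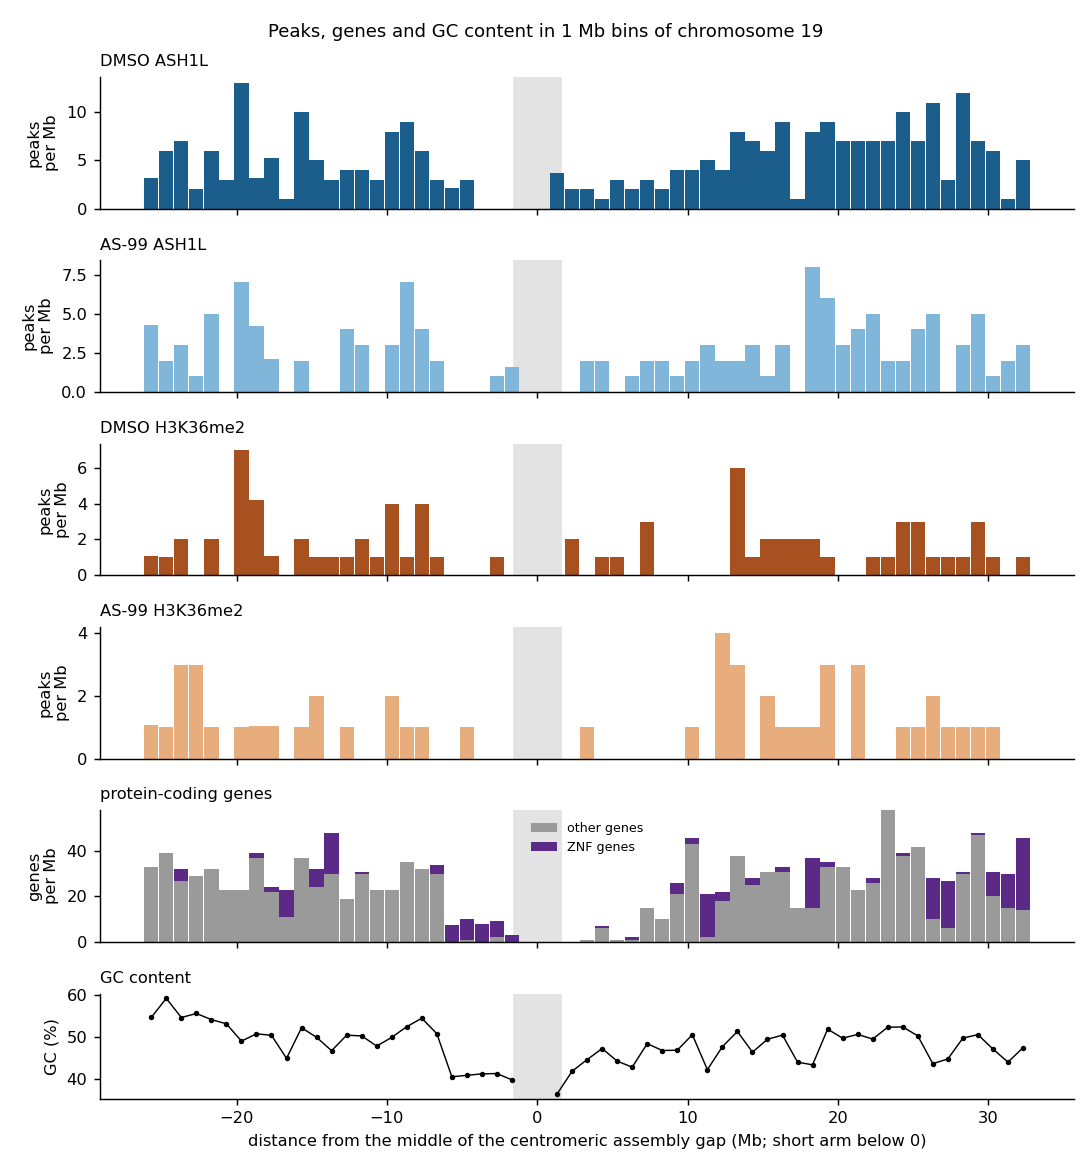
Peaks per Mb in the 4 lists, protein-coding genes per Mb (ZNF genes in purple, other genes in grey) and G and C content in percent, in 1 Mb bins placed by their distance in Mb from the middle of the centromeric assembly gap (grey band, short arm below 0). Next to the gap on the short arm the genes are nearly all ZNF genes, G and C content falls to about 40% and few bins hold a peak.

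DMSO ASH1L peaks were denser in windows richer in G and C, and in each class chromosome 19 lay above the other autosomes. In windows of 100 kb the density went from 2.48 peaks per Mb under 40% G and C (0.91 to 5.40) and 2.73 at 40 to 45% (1.96 to 3.71) to 6.97 at 50 to 55% (5.86 to 8.24) and 8.08 at 55% or more (5.82 to 10.9). On the other autosomes the same classes held 0.45, 1.37, 2.42 and 2.07 peaks per Mb. At equal class, chromosome 19 had 5.48 times the density of the other autosomes under 40% (2.00 to 12.0, from 6 peaks), 1.99 times at 40 to 45% (1.42 to 2.72), 1.92 times at 45 to 50% (1.42 to 2.53), 2.88 times at 50 to 55% (2.34 to 3.54) and 3.90 times at 55% or more (2.58 to 5.81). The ratio thus had no single direction over the classes. For DMSO H3K36me2 the ratio was 0.86 at 40 to 45% (0.39 to 1.64) and 2.41 at 50 to 55% (1.61 to 3.55). Only 2 DMSO H3K36me2 peaks lay under 40%.

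Windows were also grouped by their number of gene starts. Among windows with no gene start, DMSO ASH1L had 1.74 peaks per Mb on chromosome 19 and 0.60 elsewhere, a ratio of 2.88 (1.70 to 4.57). With 6 or more gene starts it had 8.46 against 4.16, a ratio of 2.03 (1.44 to 2.84). For AS-99 ASH1L the ratios in these classes were 2.83 and 2.89, and for DMSO H3K36me2 2.35 and 2.10, the last with an interval from 0.98 to 4.25. For AS-99 H3K36me2 they were 3.19 (1.03 to 7.55) and 1.73 (0.54 to 4.79), so with 6 or more gene starts the H3K36me2 ratios were not distinguishable from 1. On chromosome 19 itself, windows with 50% or more G and C held more DMSO ASH1L peaks than poorer windows at the same gene number. They had 5.28 against 2.76 peaks per Mb where there were 0 to 2 gene starts, and 8.01 against 4.70 where there were 3 or more.

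**Figure D3:**
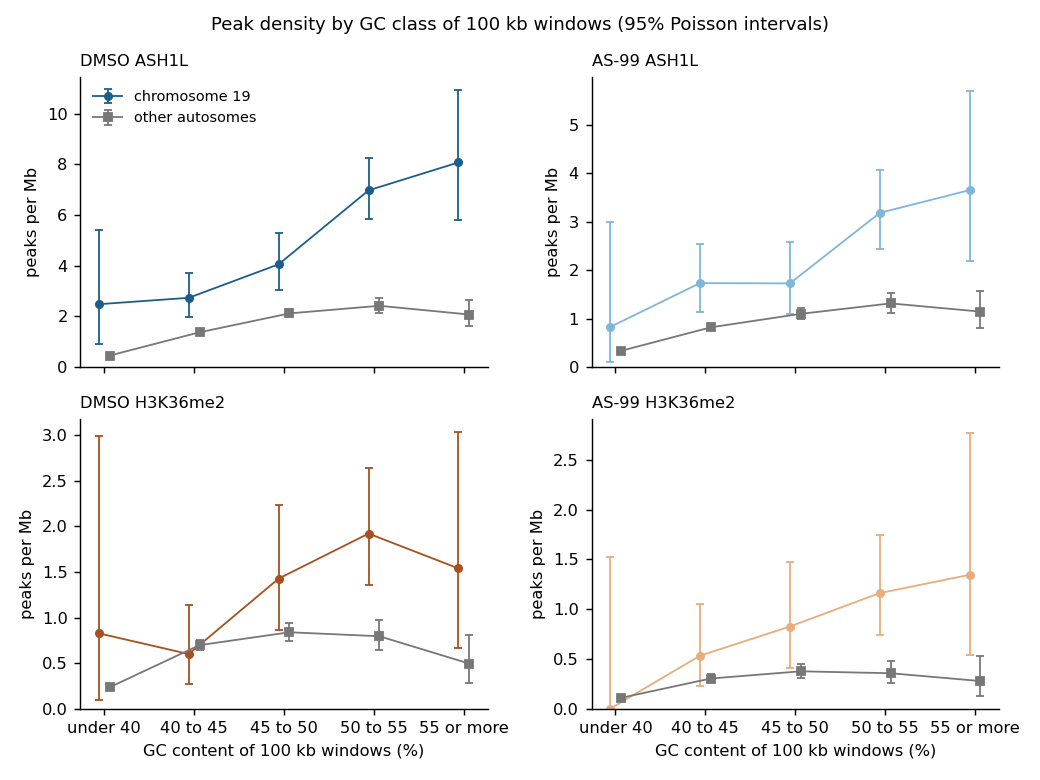
Peaks per Mb (vertical axes, one panel for each list) in 100 kb windows grouped by G and C content in percent, for chromosome 19 (coloured circles) and all other autosomes (grey squares), with 95% Poisson intervals. In DMSO ASH1L chromosome 19 climbs from 2.48 to 8.08 peaks per Mb while the other autosomes level off near 2.

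ZNF genes were not dense in peaks over their length, but their starts carried ASH1L peaks more often than those of other genes. Of the 1480 protein-coding genes of the chromosome 249 had a symbol starting with ZNF, and 233 of these lay in 12 clusters, each a run of at least 4 ZNF genes with gaps of at most 250 kb. The clusters covered 23.3% of the determined bases at 43.5% G and C, and the ZNF gene bodies 13.5%. ZNF gene bodies held 34 of the 281 peaks of DMSO ASH1L, 12.1% (8.53 to 16.5), and 21 of the 134 of AS-99 ASH1L, 15.7% (9.97 to 23). They held 5 of 76 peaks of DMSO H3K36me2, 6.58% (2.17 to 14.7), and 6 of 49 of AS-99 H3K36me2, 12.2% (4.63 to 24.8). The intervals enclose 13.5%, the share of bases. When a −log10 p of 10 or more was required, ZNF bodies held 0 of 25 and 0 of 14 H3K36me2 peaks. These intervals reach 13.7% and 23.2% and also enclose the share of bases.

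Compared with the bodies of other genes, ZNF bodies had 4.50 against 6.43 peaks per Mb in DMSO ASH1L, a ratio of 0.70 (0.47 to 1.02), and 2.78 against 2.79 in AS-99 ASH1L, a ratio of 1.00 (0.58 to 1.64). For H3K36me2 the ratios were 0.40 (0.12 to 1.00) in DMSO and 0.60 (0.21 to 1.45) with AS-99. Away from promoters the ZNF bodies were poorer in DMSO ASH1L peaks, with 10 peaks against 111 in other gene bodies and a density ratio of 0.30 (0.14 to 0.58). That ratio was 0.54 in AS-99 ASH1L (0.22 to 1.15) and 0.36 in DMSO H3K36me2 (0.09 to 1.01), with intervals that include 1. In AS-99 H3K36me2 it was 0.25 (0.03 to 0.99), from 2 peaks in ZNF bodies. Whole clusters were also poorer than the rest of the chromosome, by a ratio of 0.68 (0.49 to 0.93) for DMSO ASH1L and 0.39 (0.16 to 0.81) for DMSO H3K36me2. For AS-99 the cluster ratios were 0.72 (0.44 to 1.12) and 0.46 (0.16 to 1.08). The clusters are also poorer in G and C than the rest, 43.5% against 49.8%, and the part of base composition in these ratios was not tested.

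At promoters the order turned, where a promoter peak is one that reaches within 1 kb of the start of a protein-coding gene. Over all chromosomes 4.64% of protein-coding genes had a promoter peak in DMSO ASH1L, and on chromosome 19 these were 32 of 249 ZNF genes (12.9%) and 98 of 1231 other genes (7.96%), a difference of 4.89 points (0.93 to 9.82). In AS-99 ASH1L, against 1.56% of all genes, they were 15 ZNF genes (6.02%) and 38 other genes (3.09%), a difference of 2.94 points (0.34 to 6.71). In DMSO H3K36me2, against 0.412% of all genes, 5 ZNF genes and 14 other genes had one, and in AS-99 H3K36me2, against 0.382%, 4 and 10, with intervals of the difference that included 0. Some ZNF genes share a start region with a neighbour, so that 1 peak counts for both genes. Of the 34 DMSO ASH1L peaks in ZNF bodies 24 lay at a promoter and 21 were CpG-rich.

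**Figure D4:**
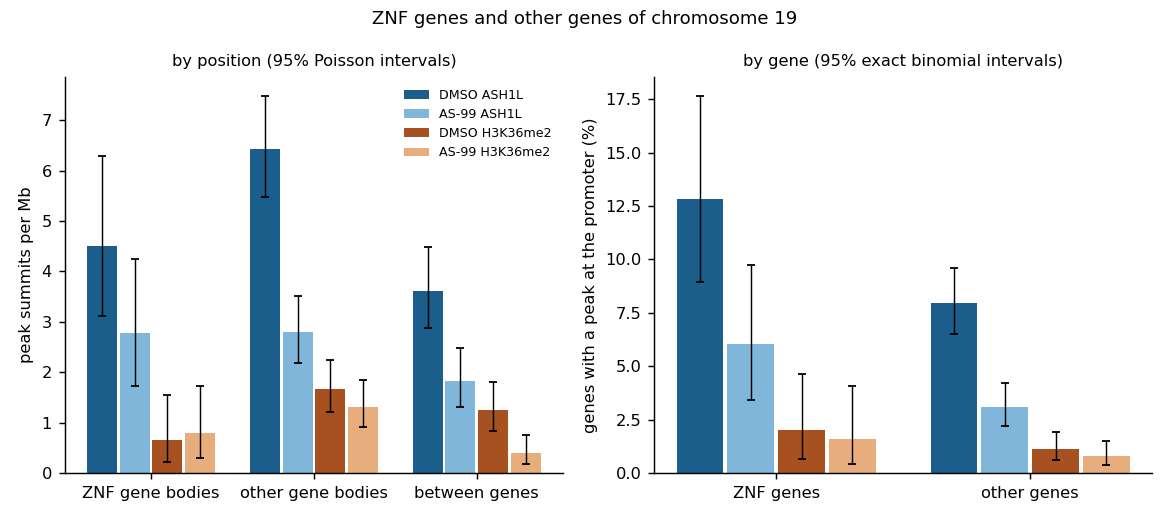
Left, peak summits per Mb in the bodies of ZNF genes, of other genes and between genes of chromosome 19, with 95% Poisson intervals. Right, percent of ZNF genes and other genes with a peak at the promoter, with 95% exact binomial intervals, where in the ASH1L lists ZNF genes stand higher (12.9% against 7.96% in DMSO, 6.02% against 3.09% with AS-99).

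By gene, 199 of the 249 ZNF genes had no summit in their body in any list. Another 38 had one in 1 list, 10 in 2 lists, 1 in 3 and 1 in 4. In DMSO ASH1L 13.7% of ZNF genes and 13.4% of the other genes of the chromosome had one. The shares were 8.03% and 6.26% in AS-99 ASH1L, 2.01% and 3.57% in DMSO H3K36me2, and 2.41% and 2.92% in AS-99 H3K36me2. ZNF566 had promoter peaks in 3 lists, with pileups of 22 in DMSO ASH1L, 13 in AS-99 ASH1L and 13 in AS-99 H3K36me2, and none was listed in DMSO H3K36me2. The gene with peaks in all 4 lists was ZNF577, with pileups of 20, 16, 22 and 19, but these lie in the coding exon of FPR3, a formyl peptide receptor gene on the other strand within the long span annotated for ZNF577. The ZNF577 start itself is 66216 bases from the DMSO ASH1L summit.

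Several ZNF starts had a listed ASH1L peak in both treatments. At the ZNF780A start the pileup was 23 in DMSO and 21 with AS-99, at ZNF616 23 and 16, at ZNF428 22 and 12, and at ZNF776 15 and 18. ZNF302 and its divergent neighbour SCGB2B2 shared peaks of 22 and 18. ZNF460 had the highest ZNF pileup, 27 in AS-99 ASH1L at chr19:57791320-57791675, and no peak there in DMSO. In the vehicle the highest ZNF pileups were 25 at the ZNF230 start and 24 at the ZNF101 start, neither of which had a listed AS-99 peak in the gene. Some summits in ZNF genes lay far from the annotated gene start, as in an intron of ZNF790, with 20 in DMSO ASH1L and 16 in AS-99 ASH1L at neighbouring positions that do not overlap. In ZNF546 DMSO ASH1L had 23 and DMSO H3K36me2 17, also without overlap, and in ZNF444 the same lists had 20 and 15 at overlapping positions. In ZNF614 the ASH1L pileups were 22 and 18, at a summit 1614 bases from the start in DMSO.

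The clusters differed in number of peaks. The cluster from ZNF175 to ZNF331, with 40 ZNF genes over 2.01 Mb, held 12, 5, 2 and 2 peaks in the 4 lists. The cluster from ZNF575 to ZNF180, with 23 ZNF genes over 0.97 Mb, held 8, 7, 2 and 1. In contrast the cluster from ZNF653 to ZNF791, with 26 ZNF genes over 1.16 Mb, held 2, 0, 0 and 0, and that from ZNF737 to ZNF254, with 29 over 3.59 Mb, held 4, 1, 1 and 1.

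Peaks of chromosome 19 lay at promoters more often than the pooled peaks of the other chromosomes with either antibody. Over all nuclear chromosomes 24.9% of DMSO ASH1L peaks were promoter peaks, and on chromosome 19 they were 108 of 281, 38.4%, against 23.5% on the other chromosomes (difference 14.9 points, 9.18 to 20.9). For AS-99 ASH1L, with 15.1% over all, they were 46 of 134, 34.3%, against 13.5% (difference 20.8, 13.1 to 29.3). For DMSO H3K36me2, with 5.26% over all, they were 16 of 76, 21.1%, against 4.33% (difference 16.7, 8.96 to 27.2). For AS-99 H3K36me2, with 10.1% over all, they were 12 of 49, 24.5%, against 8.88% (difference 15.6, 5.40 to 29.4). On chromosome 17 the shares were 28.2% (21.1 to 36.1), 16.3% (9.42 to 25.5), 16.4% (7.77 to 28.8) and 16.0% (4.54 to 36.1) in the 4 lists, so that for H3K36me2 the intervals of chromosomes 17 and 19 overlapped widely. Genes also lie closer together on chromosome 19, and the part of gene spacing in these differences was not tested.

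Within the chromosome, ASH1L peaks were at promoters more often than H3K36me2 peaks in the vehicle, by 17.4 points (5.58 to 27.0), and with AS-99 by 9.84 points with an interval from -5.69 to 22.8. The position within the promoter did not differ between antibodies in the same direction in both treatments. Of the DMSO ASH1L promoter peaks 38 of 108 had their summit upstream of the nearest start, and of the DMSO H3K36me2 promoter peaks 13 of 16, with a median signed distance of -371.5 bases. In AS-99 H3K36me2 2 of 12 were upstream, and in AS-99 ASH1L 13 of 46, so the order of the antibodies turned. These counts have no interval, and those of H3K36me2 rest on 16 and 12 peaks.

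In both ASH1L lists 26 genes had a promoter peak. The highest summed pileup was that of SIGLEC10, an inhibitory sialic acid receptor of immune cells, with 31 in DMSO and 30 with AS-99. The shared start of APBA3, an adaptor protein gene, and MRPL54, a mitochondrial ribosomal protein gene, had 31 and 24. MYO1F, an unconventional myosin of leukocytes, had 22 and 26, and BLVRB, a biliverdin reductase, 22 and 24. LILRA5, an activating leukocyte receptor, had 16 and 29. PGLS of the pentose phosphate pathway had 25 and 20, ERCC1, a DNA repair gene, 23 and 19, ATP13A1, an ATPase of the endoplasmic reticulum, 26 and 15, and the shared start of EMP3 and ODAD1 27 and 14. Depending on the gene the pileup was higher or lower with AS-99, whose library held fewer fragments.

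Peaks were richer in G and C than chromosome 19 as a whole. Median G and C content was 59.3% for DMSO ASH1L (58.4 to 60.6), 57.0% for AS-99 ASH1L (54.5 to 58.5), 53.2% for DMSO H3K36me2 (50.8 to 56.7) and 56.4% for AS-99 H3K36me2 (54.2 to 57.8), against 48.4% for all determined bases. Peaks on the other chromosomes pooled had medians of 52.8%, 47.0%, 43.7% and 44.4%. On chromosome 22, which is close in base composition, the medians were 54.1% (48.8 to 56.5), 54.8% (48.5 to 58.3), 53.8% (47.0 to 57.6) and 54.8% (50.1 to 59.5), with intervals that overlap those of chromosome 19 in every list but DMSO ASH1L. On chromosome 17 they were 55.8% (53.7 to 58.4), 54.1% (50.9 to 56.8), 50.5% (47.1 to 54.2) and 53.5% (48.4 to 56.1). These intervals overlap those of chromosome 19 in every list, in DMSO ASH1L only at the edge. Promoter peaks had higher values than the rest, with 62.3% against 56.7% for DMSO ASH1L.

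On chromosome 19 ASH1L peaks were CpG-rich more often than H3K36me2 peaks, as they also were on the other chromosomes. A window of 300 bases around the summit was called CpG-rich with at least 50% G and C and a ratio of observed to expected CG of at least 0.6, which 5.31% of all windows of the chromosome met. For DMSO ASH1L 107 of 281 peaks were CpG-rich, 38.1%, and for AS-99 ASH1L 42 of 134, 31.3%. For H3K36me2 they were 10 of 76, 13.2%, and 6 of 49, 12.2%. Peaks on the other chromosomes were CpG-rich in 25.7% (DMSO) and 12.6% (AS-99) of cases for ASH1L. For H3K36me2 those shares were 2.32% and 8.21%. ASH1L exceeded H3K36me2 by 24.9 points in DMSO (14.0 to 33.2) and by 19.1 points with AS-99 (5.08 to 29.6). In DMSO even the promoter peaks differed, with 78 of 108 CpG-rich for ASH1L and 3 of 16 for H3K36me2.

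Short sequence motifs were counted in the same windows on both strands, as descriptions. The GC box GGGCGG was in 40.2% of DMSO ASH1L peaks (34.4 to 46.2), 31.3% of AS-99 ASH1L, 23.7% of DMSO H3K36me2 and 24.5% of AS-99 H3K36me2 peaks. It was in 11.4% of all chromosome 19 windows and 61.8% of windows at gene starts. Of the peaks on other chromosomes 24.3%, 13.3%, 6.34% and 10.2% held it in the 4 lists. The ETS motif CCGGAAG was in 35 of 281 DMSO ASH1L peaks, 12.5% (8.83 to 16.9), and in 4 of 134 AS-99 ASH1L peaks, 2.99% (0.82 to 7.47), against 1.53% of windows and 18.4% of gene starts. On other chromosomes it was in 5.78% and 3.49% of the ASH1L peaks. The palindromic NRF1 motif was in 0.06% of windows, 2.30% of gene starts and 0.11% of DMSO ASH1L peaks on other chromosomes. On chromosome 19 it was in 4 DMSO ASH1L peaks, 1.42% (0.39 to 3.60), and in 0 peaks of the other lists. There 0 allows a share of up to 2.72% in AS-99 ASH1L and 7.25% in AS-99 H3K36me2. The PU.1 motif GAGGAAGT was in 8, 3, 1 and 1 peaks, which is 2.85%, 2.24%, 1.32% and 2.04% against 1.37% of windows. Peaks on other chromosomes held it in 3.57%, 2.48%, 4.10% and 2.85% of cases. The AP-1 motif TGACTCA was in 17, 10, 8 and 3, which is 6.05%, 7.46%, 10.5% and 6.12% against 4.66% of windows. Its shares on other chromosomes were 8.56%, 7.10%, 10.9% and 8.21%.

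Sequence of the zinc finger coding repeats was rare at the summits. The DNA that codes for the linker between C2H2 fingers was in 4, 3, 2 and 0 peaks of the 4 lists, which is 1.42% of DMSO ASH1L (0.39 to 3.60), 2.24% of AS-99 ASH1L (0.46 to 6.40) and 2.63% of DMSO H3K36me2 peaks (0.32 to 9.18), against 1.66% of windows. The intervals enclose the share of windows. In AS-99 H3K36me2 0 of 49 peaks held it, which allows a share of up to 7.25%. Tandem repeats, taken as runs of at least 24 bases of a unit of at most 6, were in 2 DMSO ASH1L peaks and 0 of the others, against 3.07% of windows. A count of 0 allows up to 2.72% in AS-99 ASH1L, 4.74% in DMSO H3K36me2 and 7.25% in AS-99 H3K36me2. Peaks on other chromosomes held such repeats in 0.998%, 0.95%, 0.93% and 1.34% of cases in the 4 lists.

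Gene lists of the chromosome were counted whole, for a peak within a gene or 5 kb of it. Of all 1480 genes 21.2% met this in DMSO ASH1L, 10.4% in AS-99 ASH1L, 5.34% in DMSO H3K36me2 and 4.05% in AS-99 H3K36me2. Of 22 myeloid and leukaemia genes 7, 4, 4 and 2 did so, which is 31.8% in DMSO ASH1L (13.9 to 54.9). ELL, a fusion partner of MLL1, had peaks in each list, at 4 separate positions with pileups of 19, 13, 20 and 16. MLLT1, another partner, had an intronic DMSO ASH1L peak of 19. At ICAM1, an adhesion receptor of leukocytes, DMSO ASH1L had a peak of 31 at chr19:10380605-10380989, with its summit 921 bases upstream of the start (signed distance -921). BCL3, an NF-κB regulator, had an intronic peak of 24 in DMSO ASH1L, and ADGRE5, an adhesion receptor of leukocytes, intronic peaks of 18 in DMSO ASH1L and 19 in DMSO H3K36me2. Other peaks were counted for a listed gene but lay at a neighbour. Those counted for JUND, a subunit of AP-1, had 21 in AS-99 ASH1L and 18 in DMSO H3K36me2 and lay at the promoter of IQCN, beyond the 3′ end of JUND. Those counted for CALR lay at the start of FARSA, with 18 and 16 in the ASH1L lists, and that counted for JUNB in an intron of HOOK2, with 23 in DMSO H3K36me2. The peak counted for ELANE, the neutrophil elastase gene, lay at the neighbouring start of CFD, the complement factor D gene, with 17, 14 and 15 in DMSO ASH1L, AS-99 ASH1L and AS-99 H3K36me2.

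Of 17 chromatin genes 6, 1, 2 and 3 met the count. In DMSO ASH1L these were the histone methyltransferase gene DOT1L with a pileup of 28, PRMT1 with 24, KDM4B with 21 and 17, and CHAF1A with 18. The other peaks within 5 kb of a listed gene lay at the starts of neighbours, with 20 at that of CHMP2A beyond the 3′ end of TRIM28, 17 at that of SH3GL1 beside CHAF1A and 18 at that of TIMM50 beside SUPT5H. AS-99 ASH1L had 1, in an intron of UHRF1 with 13. SMARCA4 and SIRT6 had AS-99 H3K36me2 peaks of 14 and 16, and another of 16, between genes and nearest RPS16, was counted for SUPT5H. CARM1 and SIRT2 had DMSO H3K36me2 peaks of 22 and 16. These lists are too short for their shares to be set apart from those of all genes.

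With AS-99 fewer peaks were listed on chromosome 19, as elsewhere, and for ASH1L the ratio of counts was lower there. The ASH1L count went from 281 to 134, a ratio of 0.48 (0.39 to 0.59), against 0.60 on the other chromosomes (0.57 to 0.64). The H3K36me2 count went from 76 to 49, a ratio of 0.64 (0.44 to 0.94), against 0.46 (0.42 to 0.51). Per filtered fragment the ASH1L ratio was 0.61 on chromosome 19 (0.49 to 0.75) and 0.77 on the other chromosomes (0.72 to 0.82). The H3K36me2 ratio was 0.76 (0.52 to 1.10) and 0.54 (0.49 to 0.60). The AS-99 libraries held fewer fragments, and depth cannot be told apart from treatment. As a share of the nuclear peaks, chromosome 19 was lower by 1.76 points for ASH1L with AS-99 (difference -1.76, interval -3.30 to -0.15), and for H3K36me2 the difference was 2.03 points (-0.21 to 4.58). The share in ZNF bodies differed by 3.57 points for ASH1L (-3.19 to 11.4) and 5.67 for H3K36me2 (-4.58 to 18.2), so no difference between treatments was detectable there.

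Most positions were listed in 1 treatment only. Over all chromosomes 12.8% of DMSO ASH1L peaks were overlapped by an AS-99 ASH1L peak, and on chromosome 19 50 of 281 were, 17.8% (13.5 to 22.8), a difference of 5.45 points from the other chromosomes (1.23 to 10.5). With an overlap of 50% of both peaks the share was 11.4%. Seen from the AS-99 side, against 21.7% over all, the same 50 were 37.3% of 134 peaks (29.1 to 46.1). For H3K36me2, against 9.67% over all, 8 of 76 DMSO peaks were overlapped, 10.5% (4.66 to 19.7), and against 20.6% those 8 were 16.3% of the 49 AS-99 peaks. Peaks at or above the median pileup of 20 were overlapped more often than lower ones in ASH1L, 40 of 154 against 10 of 127, a difference of 18.1 points (9.40 to 26.3). Promoter and other ASH1L peaks were overlapped in 21.3% and 15.6% of cases, with an interval of the difference from -3.38 to 15.5.

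Where both treatments had a peak, the median pileup per 1000000 fragments differed little between them. The median log2 ratio of AS-99 to DMSO was 0.09 over 50 ASH1L pairs (0.03 to 0.21), with 33 higher with AS-99, and 0.09 over 8 H3K36me2 pairs (-0.28 to 0.50), with 6 higher. A pair exists only where both libraries passed the peak threshold, so these ratios are a description of such positions. The ratio was highest at LILRA5, with 16 against 29 fragments and a log2 ratio of 1.21, and lowest at EMP3 and ODAD1, with 27 against 14 and -0.60. The 8 H3K36me2 pairs lay at SIGLEC10 (25 and 30), near TNFSF9 (30 and 21), in EPS15L1 (19 and 20), PAK4 (17 and 19), FPR3 (22 and 19) and SHISA7 (18 and 17), in RELB, an NF-κB subunit gene (20 and 16), and 9328 bases from CD177, a neutrophil surface protein gene (15 and 13).

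**Figure D5:**
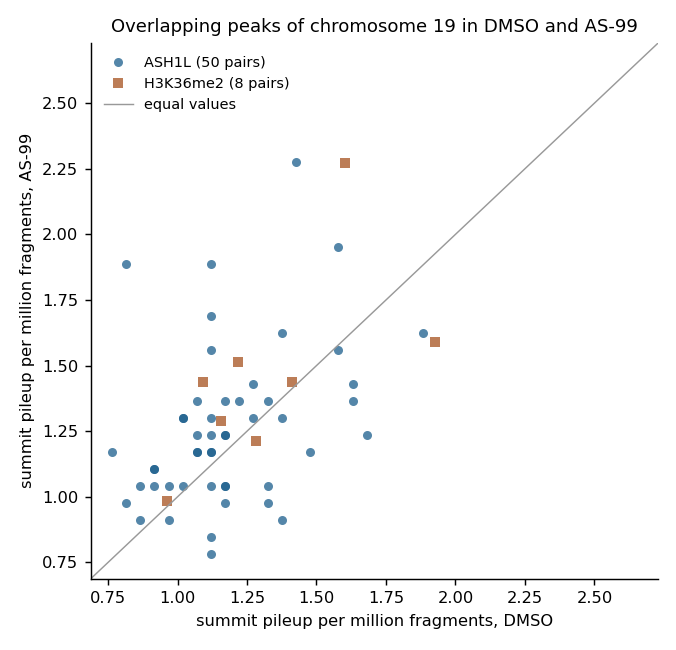
Summit pileup per 1000000 filtered fragments in DMSO (horizontal axis) and AS-99 (vertical axis) for overlapping peaks of the same antibody on chromosome 19, 50 pairs for ASH1L (circles) and 8 for H3K36me2 (squares), darker where points coincide. The points lie around the line of equal values, with 33 ASH1L and 6 H3K36me2 pairs above it.

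H3K36me2 peaks met ASH1L peaks more often on chromosome 19 than elsewhere in the vehicle. Over all chromosomes 19.4% of DMSO H3K36me2 peaks were overlapped by a DMSO ASH1L peak, and on chromosome 19 30 of 76 were, 39.5% (28.4 to 51.4), which exceeded the other chromosomes by 21.2 points (10.8 to 32.6). Where the overlap had to cover 50% of both peaks the share was 21.1%. With AS-99, against 22.2% over all, 13 of 49 H3K36me2 peaks met an AS-99 ASH1L peak, 26.5% (14.9 to 41.1), with a difference of 4.64 points (-6.25 to 18.7). The number of ASH1L peaks per Mb is itself higher on chromosome 19, by 4.79 times in DMSO.

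The 540 peaks merged into 433 regions, of which 348 were in 1 list, 69 in 2, 10 in 3 and 6 in all 4. The peaks of DMSO ASH1L alone formed 202 of the regions. Regions were not counted over all chromosomes, so these numbers describe chromosome 19 only. Sharing between lists was the exception genome-wide too, at 12.8% of DMSO ASH1L peaks with AS-99 ASH1L and 19.4% of DMSO H3K36me2 peaks with DMSO ASH1L. The 6 regions in all 4 lists, of which 5 are shown above by sequence, had the following pileups, in the order of the lists used throughout. SIGLEC10 had 31, 30, 25 and 30, and the region upstream of TNFSF9, the ligand of a costimulatory receptor of T cells, had 27, 25, 30 and 21. EPS15L1, a gene of clathrin-mediated endocytosis, had 32, 21, 19 and 20, and PAK4, a p21-activated kinase, had 29, 18, 17 and 19. FPR3 had 20, 16, 22 and 19, and SHISA7 had 23, 19, 18 and 17. In DMSO the ASH1L pileup was higher than that of H3K36me2 at SIGLEC10, EPS15L1, PAK4 and SHISA7. It was 32 against 19 at EPS15L1 and 29 against 17 at PAK4. Near TNFSF9 (27 against 30) and at FPR3 (20 against 22) it was lower. At SIGLEC10 the 4 values lay within 6 fragments of each other. These pileups are not scaled to the number of fragments, which differed between the libraries. The regions were chosen for a peak in every list, so the values describe such positions only.

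Of the 10 regions in 3 lists, 3 lacked AS-99 H3K36me2. They were DEDD2, a death effector domain gene, with 28, 35 and 39 in the other lists at chr19:42705879-42706553, an intron of the insulin receptor gene INSR with 23, 16 and 20, and chr19:44269157-44270035 between genes with 32, 22 and 27. Another 6 lacked DMSO H3K36me2, among them MYO1F with 22, 26 and 26, the start of APBA3 and MRPL54 with 31, 24 and 14, and an intron of SIPA1L3 with 22, 29 and 14. RELB lacked AS-99 ASH1L and had 24, 20 and 16.

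The highest peaks of DMSO ASH1L were those of CA11 upstream of the circadian transcription factor gene DBP, with a pileup of 40 (28.6 to 54.5) at chr19:49140683-49141594, and of the transcriptional repressor gene CIC, with 38 (26.9 to 52.2) at chr19:42772611-42773245. Neither was overlapped by an AS-99 ASH1L peak or by an H3K36me2 peak. An intron of ERCC1 followed with 37 (26.1 to 51.0) at chr19:45959227-45959571 and the highest fold over background of that list, 7.06, and was overlapped by an AS-99 ASH1L peak. At promoters CYTH2, an exchange factor of ARF proteins, and GSK3A, a glycogen synthase kinase, each had 32 in DMSO ASH1L and no AS-99 peak.

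With AS-99 the highest ASH1L peaks were those of DEDD2, with 35 (24.4 to 48.7), and of RTN2, a reticulon gene, with 32 (21.9 to 45.2) at chr19:45988847-45989122, where DMSO ASH1L had no peak. The fold was highest at SIGLEC10, 7.44. The highest DMSO H3K36me2 peaks were DEDD2 with 39 (27.7 to 53.3) and chr19:7402212-7402912 upstream of the exchange factor gene ARHGEF18 with 35 (24.4 to 48.7). A region near CD70, the ligand of a lymphocyte receptor, came next with 34 (23.5 to 47.5). By fold DEDD2 was highest in that list, 7.31, followed by an intron of the complement gene C3 with 6.78 and a pileup of 27. The highest AS-99 H3K36me2 peak was that of SIGLEC10 with 30 (20.2 to 42.8) and the highest fold of the chromosome, 9.09. MYO1F followed with 26 (17 to 38.1), then a region near LAIR1, an inhibitory leukocyte receptor gene, with 24 (15.4 to 35.7). EGLN2, an oxygen-sensing prolyl hydroxylase gene, had 18 in the same list with a fold of 7.05. The regions of DEDD2, upstream of ARHGEF18 and near CD70 had no AS-99 H3K36me2 peak. Those of MYO1F and near LAIR1 had no DMSO H3K36me2 peak.

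By the median, peaks of the same list lay closer together on chromosome 19 than elsewhere, while the share of close neighbours was higher in DMSO ASH1L alone. The median distance to the nearest peak was 52.7 kb in DMSO ASH1L, 108 kb in AS-99 ASH1L, 230.0 kb in DMSO H3K36me2 and 273 kb in AS-99 H3K36me2, against 183, 377, 356 and 1166 kb on the other autosomes. Within 10 kb of another peak lay 30 of the 281 DMSO ASH1L peaks, 10.7% against 4.99% on the other autosomes, and 4 of the 134 AS-99 ASH1L peaks, 2.99% against 4.13%. It was 0 in the H3K36me2 lists, which allows up to 4.74% of the 76 DMSO and 7.25% of the 49 AS-99 peaks. On the other autosomes 4.25% and 5.03% of the H3K36me2 peaks did so, each within its limit.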

How the data were processed

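The 4 libraries are CUT&RUN of MV4;11 cells, 2 with an antibody against ASH1L and 2 with one against H3K36me2. Reads were mapped with Bowtie2 to hg19, and SAMtools 1.5, bedtools and HOMER 4.10 are also named in the submitters' processing notes. Per the file headers the authors called peaks in each library with MACS 2.1.0.20150731 without a control, from fragments of read pairs of which at most 2 duplicates were kept, at a q-value of 0.01 and with 10000 bp as the local background window. The study's methods name an earlier MACS with a p-value threshold, a size selection of fragments, a spike-in, a slightly higher dose and replicate treatments. The headers and labels were followed, no spike-in entered the values used, and whether a library pools cultures is not settled.

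The deposited signal is the pileup, the number of fragments over the summit, and was left unscaled. The deposited −log10 p-value and −log10 q-value compare it with the library's background by a Poisson model, and the deposited fold divides pileup plus 1 by background plus 1. Positions, lengths and summits are deposited in bp as other columns.

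Peaks were annotated with GENCODE release 44 on GRCh37, whose chromosome 19 has the length of hg19, with Python 3.11.15, pandas 2.3.3 and pysam 0.24.0. The local background was recovered from pileup and fold. Bodies were assigned by summit and promoters by overlap with 1 kb around a protein-coding start. Intervals are exact binomial or Poisson for shares and counts, Newcombe for differences of shares and order-statistic for medians (SciPy 1.17.1). Overlap between lists needed 1 bp. Interval and overlap code was tested on simulated data and against bedtools 2.31.1. Mitochondrial peaks were left out of shares of nuclear peaks.

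Named peaks were the 3 with the highest pileup and the 3 with the highest fold in each list, all regions in all 4 lists, and the 2 highest DMSO and the 2 highest AS-99 peaks of each antibody without a counterpart. Named genes were ZNF genes in 2 or more lists or among the 5 highest of a list, the 5 highest promoter peaks of each ASH1L list, the 10 highest promoters in both, and the members of the gene lists. Members, lists and rules were chosen with earlier results of these data known. The sequence of 1 region found in all 4 lists is not reported here.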

Additional observations from a re-analysis of the deposited data

Results flagged for a closer look

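The following 3 differences between AS-99 and DMSO had opposite signs with the 2 antibodies on chromosome 19. The chromosome's share of the list differed by -1.76 points for ASH1L and by 2.03 points for H3K36me2. The share of its peaks at promoters differed by -4.11 points for ASH1L (-13.6 to 5.91) and by 3.44 points for H3K36me2 (-10.9 to 19). The median G and C content of its peaks differed by -2.35 points for ASH1L and by 3.20 points for H3K36me2, where on other chromosomes the differences were -5.79 and 0.76 points. With 1 library a group the difference between the antibodies was not tested.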

How the results depend on the processing

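Each of 22 values was recomputed under its alternatives, 98 recomputations in all. The new value fell inside the 95% interval given in the report in 89 cases and outside it in 9, and 0 ratios turned direction. With a −log10 p of at least 10, which keeps 104, 46, 25 and 14 peaks in the 4 lists, the chromosome's share of DMSO ASH1L was 10.5%, its median G and C content 60.7% and the share of DMSO ASH1L peaks overlapped with AS-99 13.5%. Under that setting ZNF bodies held 0 of 25 H3K36me2 peaks in DMSO (0%, which allows up to 13.7%). With AS-99 they held 0 of 14 (0%, which allows up to 23.2%). Per filtered fragment the ASH1L ratio of AS-99 to DMSO was 0.61. With a reciprocal overlap of 50%, the share of DMSO ASH1L peaks overlapped with AS-99 was 11.4% and that of DMSO H3K36me2 peaks with ASH1L 21.1%. Over 500 bp around the summit the median of AS-99 H3K36me2 was 53.6%. The stricter thresholds keep fewer peaks, and beyond that the cause of these shifts was not tested. A common floor of 5.53 for −log10 p, leaving out peaks within 1 Mb of the centromeric gap, wider promoters and wider ZNF symbols kept their values within the intervals.

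No paired analysis was possible because there was 1 library per group, and leaving out a library would have emptied a group. The H3K36me2 values rest on 76 and 49 peaks, and pileups were at most 40. Repeats and mappability were not annotated here, which bears on ZNF genes with near-identical copies, and the part of either was not tested.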
